A study of Mus musculus with 9 samples.

Results

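Amino acid transporters are described here as they appear in mouse liver endothelial cells, the cells that line the vessels of the liver. The members are the rows of the gene count table whose symbol starts with Slc1a, Slc3a, Slc6a, Slc7a, Slc36a, Slc38a or Slc43a, 67 of 52636 rows. They were taken by name, not by level or change, and the name rule was set with earlier results of these data known. Of these, 64 are annotated as protein-coding genes and 3 as antisense transcripts (Slc36a1os, Slc36a3os and Slc6a19os). After a filter on low counts, 31 of the 67 rows were tested, among 14583 genes tested in all. The name rule also takes rows that are not amino acid carriers in the strict sense, such as Slc43a3, a purine nucleobase carrier, Slc6a4, the serotonin carrier, Slc6a8, the creatine carrier, and Slc7a6os, a gene named for its position beside Slc7a6.

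The groups compared were taken at day 7 after tamoxifen and are 5 libraries labelled as a double knockout of Erg and Fli1, called KO below, and 4 Control libraries labelled Wild Type. Both genes encode transcription factors of the ETS family that endothelial cells depend on. The same tamoxifen treatment is given for the mice of both groups, and neither the allele design, the driver of the deletion nor the part of each gene that is removed is given in the sources used here. Live cells without CD45 and with CD31 on the surface were sorted after an antibody to VE-cadherin had been injected into the mice, and polyadenylated RNA was sequenced. The labels do not say that each sample came from its own animal, so the spread behind each p-value is that between samples and may in part be technical. The comparison asks which transcripts differ when both factors are targeted.

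The libraries held 26791371 to 36401682 counts in KO and 31613059 to 34663989 counts in Control, at which 1 count was worth 0.0260 to 0.0368 CPM (counts relative to the library total, scaled by TMM). Erg averaged 142.9 ± 10.9 CPM in KO and 311.6 ± 17.8 CPM in Control (SD, n = 5 and 4), and Fli1 averaged 147.4 ± 22.5 CPM in KO and 100.1 ± 8.01 CPM in Control. Fli1 counts were thus higher in the libraries labelled knockout, and counts over a whole gene do not show whether the deleted exons are missing. Over all genes tested, 2110 rose and 2161 fell in KO at an adjusted p under 0.05 (quasi-likelihood test of edgeR, adjusted by Benjamini-Hochberg), with a median log2 fold change of 0.0112. KO replicates 2 and 3 stood apart from the other 3 KO libraries. Both lay above, or both below, all 3 of them for 37.0% of all genes tested and for 19 of the 31 tested transporters (61.3%). Results that depend on them are given with and without them. Cdh5 and Pecam1, which encode the proteins of the sort, averaged 2158 and 1408 CPM in KO and 2190 and 1482 CPM in Control. Of 10 pan-endothelial markers none rose and 4 fell in KO, where 14.8% of all genes tested fell. The 10 markers summed to 12504 and 13158 CPM in KO replicates 2 and 3, to 17026 to 17891 CPM in the other KO libraries and to 16597 to 18518 CPM in Control. Of 9 markers of liver sinusoidal endothelium none rose and 5 fell in KO, beside the same 14.8% of all genes. Their summed level was 12520 to 18899 CPM in KO and 28187 to 30636 CPM in Control.

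Most amino acids cross membranes only through carriers of this kind. Slc3a2 and Slc3a1 are single-pass heavy chains that carry partner light chains of the Slc7 family to the cell surface, where the light chains exchange one amino acid for another. Members of the Slc6, Slc38 and Slc1 families use the sodium gradient to concentrate their substrates, the cationic carriers of the Slc7 family bring in arginine, and members of the Slc36 and Slc38 families also sit in the lysosome, where they pass amino acids to the cytosol and report their supply to the kinase complex mTORC1. Endothelial cells use these carriers for their own protein synthesis, for arginine as the substrate of nitric oxide synthase, and to move amino acids between blood and tissue.

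Of the 31 tested transporters, 5 rose in KO (Slc6a9, Slc6a6, Slc7a1, Slc7a3 and Slc38a9), 6 fell (Slc7a5, Slc7a2, Slc43a2, Slc3a2, Slc38a7 and Slc38a6) and 20 did not pass the threshold. The share called was 35.5%, beside 29.3% of all genes tested. The share that rose was 16.1%, beside 14.5% of all genes, and the share that fell was 19.4%, beside 14.8% of all genes. KO and Control libraries did not overlap for 8 of the 31, 4 higher and 4 lower in KO, and they did not overlap for 27% of all genes tested. The median log2 fold change over the 31 was 0.0959, beside 0.0112 over all genes. The median size of the change, without its sign, was 0.638 on the log2 scale, beside 0.300 over all genes. That median rests in part on members of few reads, since 11 of the 31 averaged under 5 CPM in both groups. Of members that did not pass the threshold, 6 changed at least 2-fold, all but Slc7a8 under 5 CPM in both groups. Changes of at least 2-fold were called for 4 members that rose and 2 that fell. Over all 14583 genes tested, the same counts were 834 and 815. The count of members that rose is sensitive to single libraries. It was 3 when any 1 of the 4 Control libraries was left out, with Slc7a3 and Slc38a9 below the threshold each time, and at most 7, without KO replicate 5. Calls over all genes also fell without a Control library, to between 20.8% and 25.3%, with 1495 to 1810 genes higher, and 26.3% of all genes were called without KO replicate 5.

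**Figure D1:**
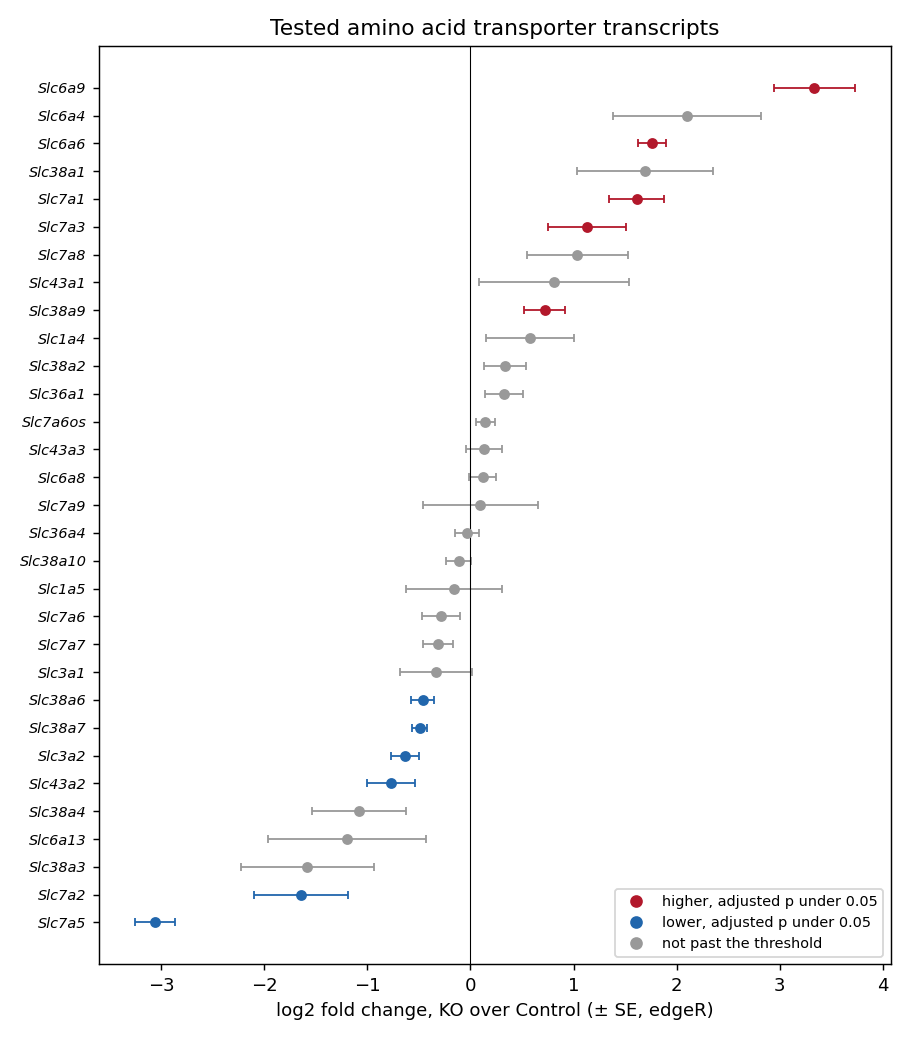
Log2 fold change of each of the 31 tested transporters, KO over Control, with its standard error (edgeR, 5 KO and 4 Control libraries). Red marks the 5 that rose and blue the 6 that fell at an adjusted p under 0.05; Slc6a9 at 3.33 and Slc7a5 at -3.06 are the ends of the range.

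The sum over all 67 rows was about the same in both groups, 4026 ± 277.5 CPM in KO and 4013 ± 215.1 CPM in Control (SD, n = 5 and 4). The make-up of that sum differed by family. The Slc6 rows together gave 284.0 to 452.9 CPM in KO libraries and 113.9 to 129.1 CPM in Control libraries, and the Slc7 rows gave 203.8 to 286.1 CPM in KO and 303.6 to 368.1 CPM in Control, so that neither family's sums overlapped between groups. Slc6a6 made up most of the Slc6 sum. The other Slc6 rows gave 21.4 to 35.6 CPM in KO and 19.5 to 25.3 CPM in Control, which overlapped. Slc7a5 accounted for the lower Slc7 sum, with means of 17.97 CPM in KO and 150.1 CPM in Control. The whole Slc7 sum averaged 242.5 CPM in KO and 330.6 CPM in Control, a smaller difference. The other Slc7 rows together were thus higher in KO on average, which was not tested. The 2 Slc3 rows, almost wholly Slc3a2, gave 154.8 to 251.8 CPM in KO and 281.2 to 297.5 CPM in Control, with no overlap. The Slc38 rows gave 928.4 to 1251 CPM in KO and 925.2 to 1080 CPM in Control, and these overlapped. Slc43a3 alone made up 38.5% of the summed level in KO and 35.3% in Control.

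Both chains of the exchanger of large neutral amino acids fell, and its light chain, Slc7a5, fell the most of the 31 tested members. Slc7a5 (ENSMUSG00000040010, GRCm38 chromosome 8, 121881150 to 121907694, minus strand) encodes the light chain that takes up leucine, other large neutral amino acids and thyroid hormone. It had 12.1, 24.01, 15.95, 19.96 and 17.8 CPM in the 5 KO libraries, against 155.5, 151.3, 175.3 and 118.3 CPM in the 4 Control libraries. The highest KO library was far below the lowest Control library. The fall was 8.35-fold, a log2 fold change of -3.06 ± 0.19 (SE) with an adjusted p of 1.58e-05 (edgeR).

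Slc3a2 (ENSMUSG00000010095, chromosome 19, 8706882 to 8723369, minus strand) encodes the heavy chain, which also binds integrins. It had 154.1, 251.1, 180.9, 161.7 and 180.3 CPM in KO, against 296.7, 280.4, 284.1 and 294.2 CPM in Control. KO replicate 2 was nearest to Control, and the groups did not overlap. The log2 fold change was -0.64 ± 0.13 (adjusted p = 0.00636, edgeR), a 1.56-fold fall, so that the heavy chain fell by less than its light chain Slc7a5. The other heavy chain, Slc3a1, and its partner Slc7a9, known from kidney and gut, were both under 1 CPM on average in either group and did not pass the threshold. Exons of Slc3a1 overlap those of Prepl on the other strand over 601 bp, and Prepl averaged 20.4 CPM in KO and 20.1 CPM in Control.

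Slc3a2 also serves the light chains Slc7a8, Slc7a7 and Slc7a6. Slc7a8, which exchanges small and large neutral amino acids, had 54.2, 28.2, 15.6, 90.5 and 93.2 CPM in KO, against 37.5, 21.1, 22.5 and 28.6 CPM in Control. KO replicates 1, 4 and 5 lay above every Control library and replicates 2 and 3 within or below the Control range. The log2 fold change was 1.04 ± 0.49 with an adjusted p of 0.140. Without KO replicates 2 and 3 it was 1.54 ± 0.25 with an adjusted p of 0.00267, and without replicate 3 alone it was 1.28 with an adjusted p of 0.0322. Slc7a7 and Slc7a6 exchange cationic for neutral amino acids. Slc7a7 averaged 76.7 ± 15.98 CPM in KO and 95.3 ± 9.39 CPM in Control (log2 fold change -0.31 ± 0.14, adjusted p = 0.133), and Slc7a6 averaged 8.47 ± 1.34 CPM in KO and 10.3 ± 2.55 CPM in Control (adjusted p = 0.279). Slc7a7 passed the threshold without KO replicate 5 (log2 fold change -0.42, adjusted p = 0.0323). Exons of Slc7a7 overlap those of Oxa1l on the other strand over 232 bp, and Oxa1l rose, with 68.0 CPM in KO and 46.4 CPM in Control. Whether reads were counted by strand is not given in the sources used here, so counts of overlapping genes on opposite strands may be mixed.

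Compared per kb of exons, which allows genes of different length to be set side by side, the mix of light chains differed between the groups. Slc7a5 made up 12.6% of the summed level of Slc7a5, Slc7a6, Slc7a7 and Slc7a8 in KO (8.66% to 19.0% over libraries) and 52.4% in Control (46.7% to 56.4%). Slc7a7 made up 57.6% in KO and 37.4% in Control, and Slc7a8 made up 25.1% in KO and 7.18% in Control. The 4 light chains summed to 41.1 ± 12.1 CPM per kb in KO and 77.0 ± 8.38 CPM per kb in Control, beside 52.6 ± 10.9 and 81.9 ± 2.22 CPM per kb for their heavy chain Slc3a2 in KO and in Control. The light chain sum divided by the level of Slc3a2 was 0.480 to 1.13 in KO and 0.819 to 1.08 in Control, which overlap. These sums and shares are descriptions, with no test.

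**Figure D2:**
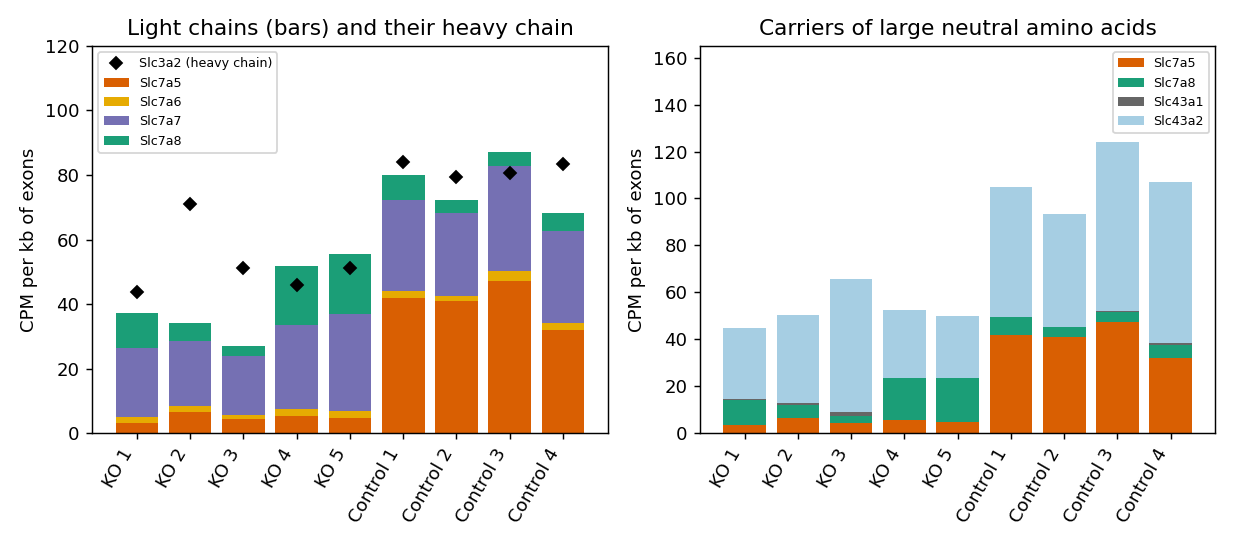
Left, levels of the 4 light chains of Slc3a2 as stacked bars and of Slc3a2 itself as diamonds, in CPM per kb of exons, for each KO and Control library; Slc7a5 (orange) takes 8.66% to 19.0% of the light chain bar in KO and 46.7% to 56.4% in Control. Right, the 4 carriers of large neutral amino acids on the same scale, with sums of 44.7 to 65.8 in KO and 93.3 to 124.2 in Control.

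Slc43a2 and Slc43a1 carry large neutral amino acids by diffusion, without sodium and without a heavy chain. Slc43a2 (ENSMUSG00000038178, chromosome 11, 75531694 to 75577575, plus strand) had 302.7, 378.4, 569.4, 289.5 and 262.2 CPM in KO, against 556.6, 481.9, 724.9 and 692.1 CPM in Control. KO replicate 3 reached into the Control range. Slc43a2 fell, with a log2 fold change of -0.77 ± 0.23 and an adjusted p of 0.0330. The call is a narrow one. It was lost in 10 of 19 alternative settings, 7 of which leave out 1 library (replicate 1, 3 or 4 of Control, or 1, 2, 4 or 5 of KO), with adjusted p between 0.0508 and 0.0897, while without KO replicates 2 and 3 the log2 fold change was -1.10 (adjusted p = 7.97e-04). An antisense transcript, Gm45606, overlaps its exons over 922 bp and fell as well, with 16.01 CPM in KO and 28.9 CPM in Control. Markers of Kupffer cells and other macrophages summed to 109.3 to 722.9 CPM in KO and 108.7 to 530.8 CPM in Control, none of 10 passed the threshold, and their part in the level of Slc43a2 was not tested. Slc43a1 averaged 3.39 ± 3.48 CPM in KO and 1.94 ± 1.03 CPM in Control (adjusted p = 0.436), with 9.30 CPM in KO replicate 3.

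Slc7a5, Slc7a8, Slc43a1 and Slc43a2 together are the carriers of large neutral amino acids known as system L. Their summed level was 52.6 ± 7.88 CPM per kb in KO (44.7 to 65.8) and 107.4 ± 12.7 CPM per kb in Control (93.3 to 124.2), a ratio of 0.489, and the groups did not overlap. The level of Slc7a5 per kb was 0.258 to 1.38 times that of Slc7a8 in KO and 5.58 to 10.5 times in Control.

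The cationic carriers went different ways. Slc7a1 (ENSMUSG00000041313, chromosome 5, 148327410 to 148399904, minus strand), the arginine carrier found in most cells, had 43.5, 68.8, 68.8, 31.0 and 31.6 CPM in KO, against 16.1, 14.6, 17.6 and 15.6 CPM in Control. Every KO library was above every Control library, and KO replicates 2 and 3 were the highest. The rise was 3.05-fold (log2 fold change 1.61 ± 0.27, adjusted p = 0.00207), and 2.23-fold without KO replicates 2 and 3. Slc7a3 (ENSMUSG00000031297, chromosome X, 101079210 to 101086020, minus strand), a cationic carrier known mainly from neurons, averaged 1.38 ± 0.657 CPM in KO and 0.630 ± 0.0635 CPM in Control. Its groups overlapped, its adjusted p was 0.0476, and the call was lost in 11 of 18 alternatives, with an adjusted p of 0.229 without KO replicates 2 and 3.

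Slc7a2 (ENSMUSG00000031596, chromosome 8, 40862396 to 40922308, plus strand), a cationic carrier known from hepatocytes and activated macrophages, had 0.529, 1.02, 0.676, 0.295 and 0.134 CPM in KO, against 1.57, 1.94, 1.42 and 1.80 CPM in Control. The groups did not overlap, at levels of few reads, and the log2 fold change was -1.65 ± 0.45 (adjusted p = 0.0222, 3.13-fold), 5.21-fold without KO replicates 2 and 3. Without Control replicate 2 the adjusted p was 0.0613. Hepatocyte markers averaged a summed 121.2 CPM in KO and 259.1 CPM in Control, with overlap between the groups. The 12 summed to 21.2 to 228.8 CPM in KO and 168.7 to 401.5 CPM in Control, with Alb at 88.3 CPM in KO and 186.4 CPM in Control, and none of the 12 passed the threshold. Their part in the level of Slc7a2 was not tested. Per kb of exons, the 3 cationic carriers summed to 4.65 ± 1.85 CPM per kb in KO and 1.73 ± 0.0761 CPM per kb in Control, of which Slc7a1 made up 91.2% in KO and 79.7% in Control.

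Both Slc6 carriers that passed the threshold rose. Slc6a6 (ENSMUSG00000030096, chromosome 6, 91684053 to 91759066, plus strand) is the taurine carrier. It had 367.0, 417.3, 253.5, 345.9 and 358.9 CPM in KO, against 108.9, 94.4, 103.2 and 105.1 CPM in Control. The lowest KO library, replicate 3, was above the highest Control library by more than the whole spread of Control. The rise was 3.39-fold (log2 fold change 1.76 ± 0.14, adjusted p = 3.57e-05), and in rank by level per kb of exons Slc6a6 stood 5th of the tested members in KO and 12th in Control.

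Slc6a9 (ENSMUSG00000028542, chromosome 4, 117834506 to 117875198, plus strand) carries glycine. It had 4.55, 11.3, 4.39, 6.30 and 5.24 CPM in KO, against 0.622, 0.531, 0.977 and 0.384 CPM in Control. KO replicate 2 was well above the other KO libraries, and all 5 were above Control. The rise was 10.1-fold (log2 fold change 3.33 ± 0.39, adjusted p = 2.94e-04), and 8.56-fold without KO replicates 2 and 3. Slc6a9 is also known from erythroid cells. The 6 erythroid markers summed to 6.67 to 52.9 CPM in KO and 17.7 to 33.3 CPM in Control, and none of the 5 tested passed the threshold. Exons of Slc6a9 overlap those of B4galt2 on the other strand over 46 bp, and B4galt2 rose, with 8.71 CPM in KO and 3.71 CPM in Control. Longer overlaps on the other strand were with Ccdc24 (1429 bp) and Gm17114 (511 bp). These averaged 0.125 and 0.00617 CPM in KO and 0.0310 and 0 CPM in Control. The part of erythroid cells or of overlapping genes in the level of Slc6a9 was not tested.

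The other 3 tested Slc6 members did not pass the threshold. Slc6a8 averaged 21.7 ± 3.24 CPM in KO and 19.999 ± 2.53 CPM in Control. Slc6a4, known from platelets among blood cells, averaged 0.745 ± 0.598 CPM in KO and 0.175 ± 0.115 CPM in Control (log2 fold change 2.10 ± 0.72, adjusted p = 0.0521). KO replicates 2 and 3 had 1.23 and 1.53 CPM of Slc6a4, and the other KO libraries 0.200 to 0.442 CPM. It passed the threshold by DESeq2 (adjusted p = 0.0204), with scaling by library size alone (0.0462) and without KO replicate 5 (0.0297). Without KO replicate 1, 2, 3 or 4, or without both 2 and 3, it was under the count filter and was not fitted. Slc6a4 had 126 counts over the KO libraries together and 22 over the Control libraries. It thus entered the fit through KO libraries alone, the group in which it was higher, so these crossings of the threshold are no support for a rise. Slc6a4 stood beside a platelet marker list of which 4 of 5 tested rose, where 14.5% of all genes tested rose. The list summed to 63.8 to 137.1 CPM in KO and 22.7 to 36.5 CPM in Control. Its part in Slc6a4 was not tested. Slc6a13, a carrier of GABA and taurine known from hepatocytes, averaged 0.219 ± 0.226 CPM in KO and 0.505 ± 0.246 CPM in Control (adjusted p = 0.271).

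**Figure D3:**
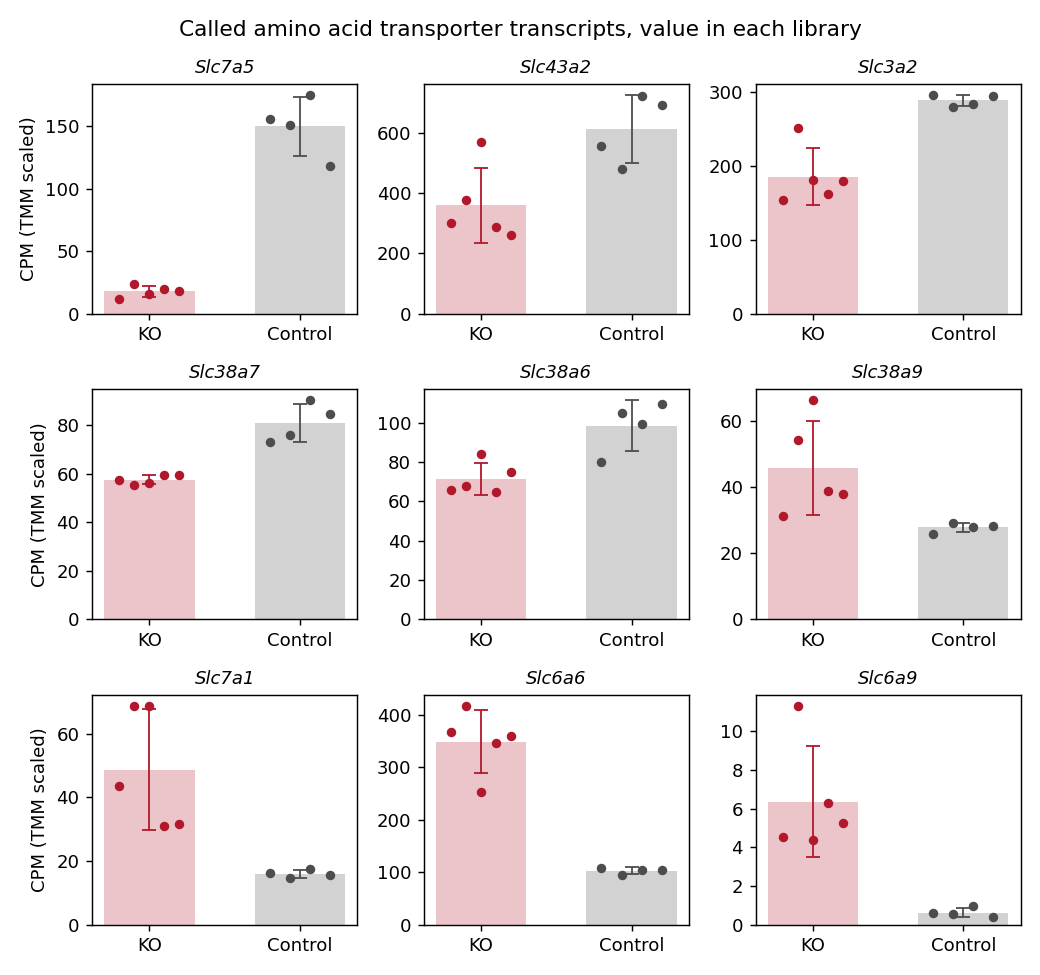
CPM of the 9 called transporters that reach a mean of 5 CPM in either group, with 1 point per library, bars for the mean and whiskers for the SD (5 KO libraries in red, 4 Control libraries in grey). The groups do not overlap for Slc7a5, Slc3a2, Slc38a7, Slc38a9, Slc7a1, Slc6a6 and Slc6a9, and overlap for Slc43a2 and Slc38a6.

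Among the lysosomal members, 1 fell and 1 rose. Slc38a7 (ENSMUSG00000036534, chromosome 8, 95835920 to 95853539, minus strand), which exports glutamine and asparagine from the lysosome, had 57.4, 55.1, 56.1, 59.5 and 59.6 CPM in KO, against 73.1, 75.9, 90.3 and 84.4 CPM in Control. The KO libraries lay within a narrow band below all Control libraries, and the log2 fold change was -0.49 ± 0.07 (adjusted p = 0.00114). Slc38a9 (ENSMUSG00000047789, chromosome 13, 112660751 to 112738749, plus strand), the lysosomal arginine sensor of mTORC1, had 31.3, 54.3, 66.4, 39.0 and 38.004 CPM in KO, against 25.8, 29.1, 28.05 and 28.3 CPM in Control. KO replicates 2 and 3 were the highest and the groups did not overlap. The log2 fold change was 0.72 ± 0.20 (adjusted p = 0.0241), and 0.38 (adjusted p = 0.0165) without those 2 libraries. Leaving out any 1 Control library put the adjusted p between 0.0533 and 0.0693.

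Slc36a1 and Slc36a4, proton-coupled carriers, did not pass the threshold. Slc36a1 averaged 108.2 ± 26.2 CPM in KO and 86.4 ± 12.0 CPM in Control (log2 fold change 0.32 ± 0.18, adjusted p = 0.209). It passed without KO replicates 2 and 3 (0.53, adjusted p = 0.0131) and without replicate 2 alone (adjusted p = 0.0394). Slc36a4 averaged 91.2 ± 13.7 CPM in KO and 93.3 ± 8.84 CPM in Control. The 4 lysosomal members summed to 49.8 ± 3.14 CPM per kb in KO and 50.8 ± 4.10 CPM per kb in Control, which differed by less than the spread between libraries.

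Of the other sodium-coupled Slc38 carriers, Slc38a6 (ENSMUSG00000044712, chromosome 12, 73286779 to 73354049, plus strand) fell, with 65.5, 67.8, 83.9, 65.0 and 74.9 CPM in KO, against 79.9, 104.8, 99.3 and 109.7 CPM in Control. KO replicate 3 and Control replicate 1 overlapped, and the log2 fold change was -0.46 ± 0.11 (adjusted p = 0.0117). Slc38a2, the carrier of small neutral amino acids that most cells raise when amino acids are short, had 504.9, 651.1, 736.0, 449.0 and 372.5 CPM in KO, against 449.1, 427.8, 338.8 and 508.8 CPM in Control. KO replicates 2 and 3 lay above Control and the other 3 within its range, and the difference did not pass the threshold (0.33 ± 0.20, adjusted p = 0.253). Slc38a10 averaged 349.5 ± 50.1 CPM in KO and 378.8 ± 34.4 CPM in Control.

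The remaining 3 tested Slc38 members were at low levels. Slc38a1, another carrier of small neutral amino acids, averaged 3.11 ± 2.90 CPM in KO and 0.962 ± 0.398 CPM in Control (adjusted p = 0.0815), with 8.05 CPM in KO replicate 2. Its log2 fold change of 1.69 became 0.97 without KO replicate 2 (adjusted p = 0.162, edgeR). Without KO replicates 2 and 3 it was 0.59 (adjusted p = 0.368, edgeR). The adjusted p was 0.0332 without KO replicate 5 and 0.0211 by DESeq2. Slc38a3 and Slc38a4, both known from hepatocytes, averaged 0.561 and 0.859 CPM in KO and 1.67 and 1.83 CPM in Control (adjusted p = 0.0938 and 0.103), beside the hepatocyte marker sums given above. Slc38a3 passed the threshold without KO replicate 4 (log2 fold change -2.32, adjusted p = 0.0142), in which it had 1.47 CPM.

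Slc1a5, the exchanger of glutamine and other small neutral amino acids, had 16.3, 44.0, 52.7, 13.0 and 12.6 CPM in KO, against 22.6, 25.5, 32.5 and 43.7 CPM in Control. KO replicates 2 and 3 were above every Control library and the other 3 KO libraries below every one. Over all libraries the log2 fold change was -0.16 ± 0.46 (adjusted p = 0.823). Without KO replicates 2 and 3 it was -1.15 ± 0.23 with an adjusted p of 0.00671. Slc1a4, a related exchanger, averaged 0.784 ± 0.512 CPM in KO and 0.524 ± 0.0435 CPM in Control (adjusted p = 0.340). Slc43a3 had the highest level per kb of all tested members in both groups, 348.5 CPM per kb in KO and 318.0 CPM per kb in Control, and its log2 fold change was 0.13 ± 0.17 (adjusted p = 0.599). Slc7a6os averaged 31.8 ± 1.67 CPM in KO and 28.8 ± 3.60 CPM in Control (adjusted p = 0.276).

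With KO replicates 2 and 3 left out, 6 transporters rose and 7 fell, beside 5 and 6 with all libraries. Over all genes, 2108 rose and 2167 fell in that fit, 29.3% of those tested, the same share as with all libraries. Slc7a8 and Slc36a1 joined those that rose, Slc1a5 joined those that fell, and Slc7a3 left (log2 fold change 0.59). Slc7a5 then differed 8.97-fold, and Slc3a2 had a log2 fold change of -0.80 in place of -0.64. Of the 19 members in which both libraries were extreme among the KO libraries, 11 had them above and 8 below.

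**Figure D4:**
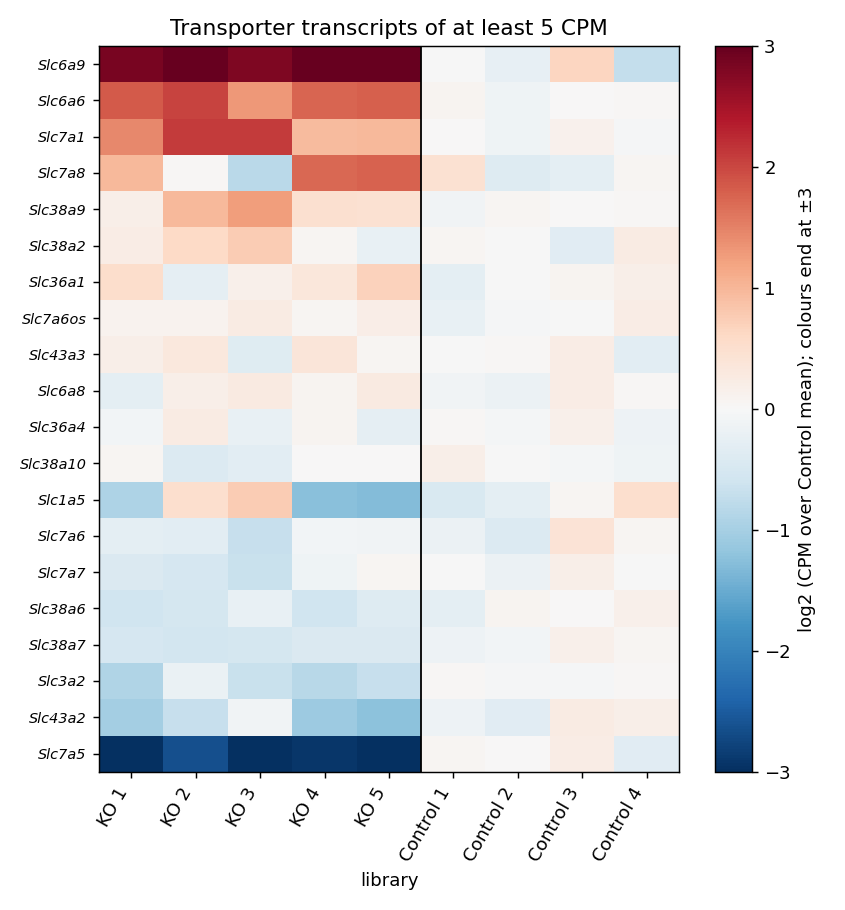
Colour map of the 20 tested transporters with a mean of at least 5 CPM in either group, as log2 of each library's CPM over the Control mean, with 5 KO columns left of 4 Control columns; colours end at ±3. Slc7a5 is dark blue and Slc6a9 dark red in all 5 KO columns, while Slc1a5, Slc7a8 and Slc38a2 differ in colour between KO replicates 2 and 3 and KO replicates 4 and 5.

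By level per kb of exons in Control libraries, Slc43a3, Slc3a2, Slc43a2, Slc38a10, Slc38a2 and Slc7a5 stood first to sixth. In KO libraries the first 6 were Slc43a3, Slc38a2, Slc38a10, Slc3a2, Slc6a6 and Slc43a2, and Slc7a5 stood 15th, at 4.85 CPM per kb in KO against 40.5 CPM per kb in Control. In bulk samples such as these, fewer cells that express a gene and less RNA per cell cannot be told apart.

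The 36 members that did not pass the count filter reached at most 18 counts in any library and at most 0.238 CPM on average in either group. For 13 of them the table lists 0 counts in all 9 libraries (Slc1a6, Slc36a3os, Slc38a11, Slc6a2, Slc6a11, Slc6a15, Slc6a18, Slc6a19, Slc6a19os, Slc6a20b, Slc6a21, Slc7a12 and Slc7a13). The other 23 include the glutamate carriers Slc1a1, Slc1a2 and Slc1a3, the cystine exchanger Slc7a11, and Slc1a7, Slc36a2, Slc38a5, Slc6a12, Slc6a14, Slc6a20a, Slc7a4 and Slc7a10. Fitted without the filter, 0 of these 23 passed the threshold by edgeR.

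Promoter sequence was available in RefSeq (GRCm38.p6, 250 bases before to 50 after each start) for 22 of the 31 tested members and for 7 of the 11 called ones. Of the called members, Slc7a5, Slc6a6, Slc7a2 and Slc7a3 had no entry. ETS factors bind sites built around GGAA, and 8 spellings of ETS, AP-1 and ATF4 motifs were searched on both strands. The spelling CCGGAA was in the window of all 4 members with an entry that fell, of 1 of 3 that rose and of 4 of 15 that did not pass the threshold. A member counts here if any of its 1 to 5 promoter entries holds the spelling (1 of 2 entries in Slc43a2 and 1 of 3 in Slc6a9). Counted the same way, 30.8% of the 10443 tested genes with an entry hold it, and counted per promoter 14.9% of all promoters of the table and 26.4% of those of tested genes do. Those counts are descriptions of few promoters, and this spelling was singled out after all 8 had been seen. The longer spelling CCGGAAG, which contains it, was in 2 of the 4 that fell and 6 of the 22 in all (19.7% of tested genes with an entry), and the longest, ACCGGAAGT, in 0 of the 22. GGAAGT was in 5 of the 22, with 1 of the 4 that fell and 0 of the 3 that rose (32.5% of tested genes with an entry). CAGGAAG, another ETS spelling, was also in 5 of the 22, but in 0 of the 4 that fell and 2 of the 3 that rose (15.1% of tested genes with an entry). GGAA alone was in all 22 and in 96.5% of tested genes with an entry. TGATGNAA, a spelling of the ATF4 composite site, was in Slc1a4 and Slc7a7 only among the 22, and TGACTCA, the AP-1 site, in Slc3a1 and Slc7a1 only. Of tested genes with an entry, 2.81% hold TGATGNAA and 4.71% hold TGACTCA. A match is not evidence that a factor binds there.

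The stretches around the CCGGAA matches of the called members are shown to let the sites be compared. They run 5′ to 3′ on the gene's strand, end at the latest at the start, and carry the 6 motif letters in capitals. In Slc6a9 the motif reads CCGGAA on the opposite strand and so appears as TTCCGG. The RefSeq start lies inside the gene as given above by 9472 bases in Slc3a2, 21041 in Slc6a9, 69 in Slc38a6 and 48 in Slc38a7, and at the gene's start in Slc43a2. Slc38a6 has another match, 58 bases before the start on the opposite strand.
Slc3a2, fell, chr19:8714076-8714131, minus strand, 209 bases before the start: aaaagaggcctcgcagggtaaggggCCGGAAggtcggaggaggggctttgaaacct
Slc38a6, fell, chr12:73286793-73286847, plus strand, 30 bases before the start: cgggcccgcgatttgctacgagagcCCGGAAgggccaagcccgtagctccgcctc
Slc38a7, fell, chr8:95853492-95853529, minus strand, 13 bases before the start: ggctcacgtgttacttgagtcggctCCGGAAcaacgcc
Slc43a2, fell, chr11:75531530-75531585, plus strand, 139 bases before the start: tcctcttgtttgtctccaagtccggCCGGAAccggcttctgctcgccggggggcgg
Slc6a9, rose, chr4:117855469-117855524, plus strand, 53 bases before the start: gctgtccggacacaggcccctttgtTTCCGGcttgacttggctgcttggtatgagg

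Genes that respond to or use amino acids were counted in the same fit, in which 29.3% of all genes tested were called. Of 22 tested genes of the amino acid response, which ATF4 drives when amino acids are short, 3 rose and 1 fell (18.2% called, median log2 fold change -0.0853). Sesn2, an inhibitor of mTORC1 that binds leucine, averaged 119.8 ± 25.5 CPM in KO and 40.2 ± 7.36 CPM in Control (log2 fold change 1.57 ± 0.18, adjusted p = 2.87e-04). Ddit4, another inhibitor of mTORC1, averaged 192.0 ± 111.9 CPM in KO and 28.7 ± 3.38 CPM in Control, and Cebpb, a transcription factor, averaged 61.7 ± 42.2 CPM in KO and 15.4 ± 3.13 CPM in Control. Aldh18a1, an enzyme of proline synthesis, fell to 6.09 ± 1.64 CPM in KO, against 12.4 ± 1.68 CPM in Control. Atf4 itself averaged 175.2 CPM in KO and 188.4 CPM in Control and did not pass the threshold. Without KO replicates 2 and 3, 6 genes of the list fell (Asns, Chac1, Ddit3, Atf3, Ppp1r15a and Aldh18a1) and the same 3 rose, with a list median of -0.281, in a fit that called 29.3% of all genes. The list summed to 1053, 2094, 1426, 915.9 and 919.3 CPM in KO, against 1493, 1321, 896.6 and 1219 CPM in Control, so the groups overlapped.

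Of 40 tested genes of amino acid sensing by mTORC1, 5 rose and 4 fell (22.5% called, median 0.0586). Sesn2 is also on this list. Wdr24 (28.95 CPM in KO, 22.03 CPM in Control), a subunit of the complex that favours mTORC1, and Tfe3 (131.8 CPM in KO, 106.6 CPM in Control), a transcription factor held back by mTORC1, rose. Eif4ebp1, the translation repressor that mTORC1 inactivates, fell, with 25.3 ± 7.06 CPM in KO and 42.7 ± 1.12 CPM in Control (log2 fold change -0.76 ± 0.18, adjusted p = 0.0114). Of the 20 aminoacyl-tRNA synthetases, which charge tRNAs with amino acids, 2 rose and 4 fell (30% called, median -0.00776). The call for Qars (glutamine) was a rise, with 91.2 CPM in KO and 63.3 CPM in Control, and those for Vars (valine), Rars (arginine) and Dars (aspartate) were falls of 1.40-fold, 1.23-fold and 1.31-fold.

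Of 25 tested enzymes of amino acid metabolism, 7 rose and 3 fell (40.0% called, median -0.0686). Ass1, which remakes arginine from citrulline together with argininosuccinate lyase, had 50.2, 90.7, 48.0, 126.1 and 156.5 CPM in KO, against 14.2, 12.0, 17.5 and 9.81 CPM in Control. All KO libraries were above Control, replicates 4 and 5 the most, and the log2 fold change was 2.82 ± 0.39 (adjusted p = 8.36e-04). Arg1, which splits arginine and is known from hepatocytes, fell to 2.82 ± 1.18 CPM in KO, against 12.2 ± 5.42 CPM in Control, beside the hepatocyte marker sums given above. Got1, a transaminase of aspartate and glutamate, averaged 124.7 ± 51.7 CPM in KO and 41.5 ± 2.997 CPM in Control. Dbt, a subunit of the complex that breaks down branched-chain amino acids, averaged 26.01 ± 2.65 CPM in KO and 12.4 ± 2.78 CPM in Control. Of 16 tested carriers of amino acids or peptides outside the 7 families, 3 rose and 2 fell (31.2% called, median 0.120). Sfxn3, a mitochondrial serine carrier, averaged 110.0 ± 12.4 CPM in KO and 42.8 ± 7.29 CPM in Control (log2 fold change 1.36 ± 0.13, adjusted p = 8.73e-05). Sfxn1, the related serine carrier, averaged 67.7 CPM in KO and 51.1 CPM in Control. The mitochondrial glutamate carrier Slc25a22 fell to 27.7 ± 1.23 CPM in KO, against 43.5 ± 4.15 CPM in Control, and the ornithine carrier Slc25a15 to 8.66 CPM in KO, against 12.8 CPM in Control.

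**Figure D5:**
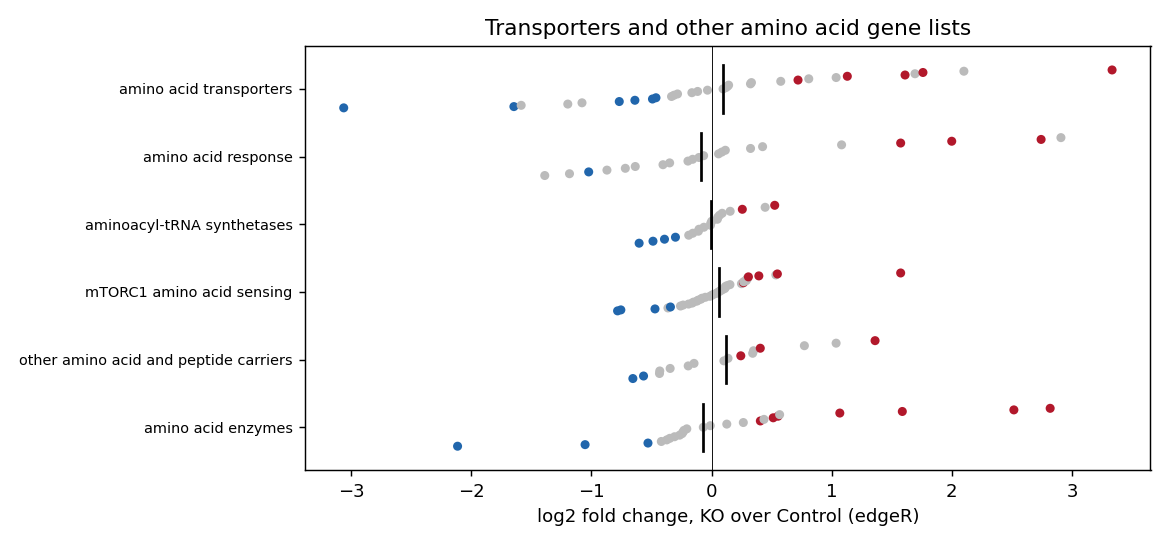
Log2 fold change, KO over Control, of each tested gene of the transporters and of 5 other amino acid gene lists, with 1 point per gene, red for a rise and blue for a fall at an adjusted p under 0.05, and a black tick at each list's median. The medians lie between -0.0853 (amino acid response) and 0.120 (other carriers), with 0.0959 for the transporters. Single genes of every list are spread about its median, those of the transporters from -3.06 to 3.33.

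Markers of other cells that a liver sort could hold are given for comparison. Of 8 tested stellate cell and fibroblast markers 1 rose (Ecm1, 279.6 CPM in KO and 116.1 CPM in Control), with sums of 176.0 to 363.5 CPM in KO and 97.0 to 165.5 CPM in Control. Ecm1 made up nearly all of these sums. The other 9 markers summed to 3.77 to 27.5 CPM in KO and 6.15 to 13.1 CPM in Control, and the median log2 fold change of the 8 was -0.0119. Of 5 tested lymphocyte and neutrophil markers 2 rose (S100a8 and S100a9), with sums of 12.0 to 26.04 CPM in KO and 6.14 to 13.4 CPM in Control. Over all genes tested, 14.5% rose. None of 3 tested cholangiocyte markers passed the threshold. The part of these cells in the transporter results was not tested.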

How the data were processed

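Raw read counts for 52636 Ensembl genes in the 9 samples were deposited by the authors as a single table, and 0 of its columns were left unused. The submitters' processing notes name STAR 2.7.6a, FastQC 0.11.5 and GRCm38. How reads were counted, over which annotation and with what strand setting, is not given in the sources used here, and the labels' protocols name an unstranded and a stranded kit without saying which library had which. Symbols, coordinates and exon lengths came from the GENCODE annotation of GRCm38, with a symbol for 52489 rows and none for 147. Library pairs within a group had a chi-square of 20.3 to 182 per degree of freedom, well above sampling noise, so none was counted as a copy.

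Genes were filtered with filterByExpr (minimum count 10, minimum total 15), scaled by TMM and fitted in edgeR 4.0.16 under R 4.3.3 (robust glmQLFit, glmQLFTest, KO over Control, no covariate), adjusted by Benjamini-Hochberg over all 14583 genes tested, with a threshold of 0.05. The standard error was the log2 fold change over the square root of F. The procedure was tested on simulated counts. Levels are CPM and, between genes, CPM per kb of exons. Not every member under the count filter is reported here by name. Every tested member could be named, with each library's value where it was called and averaged at least 5 CPM, and up to 4 called genes with the smallest p from each other list. Outside this rule, each library's value was also given for Slc7a8, Slc38a2, Slc1a5, Slc7a2 and Ass1, whose values had been seen. Atf4, single marker genes, genes that overlap members, and list members that change without KO replicates 2 and 3 were named after their values were seen. Members, lists and alternatives were chosen with earlier results of these data known, which is so for leaving out KO replicates 2 and 3 as well. Alternatives were DESeq2 1.42.0, limma-voom (limma 3.58.1), 3 other scalings, 2 other filters, a replicate block, a sex term and leaving out libraries. By the counts of Xist and Ddx3y, 2 of 5 KO and 3 of 4 Control samples were male.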

Additional observations from a re-analysis of the deposited data

Results flagged for a closer look

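In 4 of the 62 sets of libraries examined (31 transporters in each group), 1 library stood apart from the others by Dixon's criterion, which chance alone meets in about 1 of 20 sets. Slc3a2 had 251.1 CPM in KO replicate 2 and 154.1 to 180.9 CPM in the other KO libraries. Slc6a9 had 11.3 CPM in KO replicate 2 and 4.39 to 6.30 CPM in the others. Slc38a3 had 1.47 CPM in KO replicate 4 and 0.216 to 0.529 CPM in the others. Slc1a4 had 0.589 CPM in Control replicate 1 and 0.500 to 0.504 CPM in the other Control libraries. The calls for Slc3a2 and Slc6a9 held without KO replicate 2.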

How the results depend on the processing

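Over 19 alternative settings, 515 of 572 values of single transporters kept their direction and their side of the threshold, 27 lost the call, 13 gained one and 17 changed sign, all 17 in members that did not pass the threshold. Slc7a5, Slc3a2, Slc38a6, Slc38a7, Slc6a6, Slc6a9 and Slc7a1 kept their call in every alternative that was run, with log2 fold changes of -3.18 to -2.95, -0.80 to -0.57, -0.55 to -0.40, -0.54 to -0.43, 1.69 to 1.86, 3.03 to 3.63 and 1.16 to 1.74 in that order. The cause of the changes below was not tested. The log2 fold change of Slc36a4 was 0.0300 with library size alone and 0.0120 with the replicate block, that of Slc7a9 was -0.0248 by limma-voom and -0.0923 with the block, and without KO replicates 2 and 3 that of Slc38a10 was 0.0340 and that of Slc43a1 -0.375. Leaving out 1 library gave values from -0.533 to 0.0439 for Slc1a5, -0.108 to 0.0226 for Slc36a4, -0.0204 to 1.22 for Slc43a1 and -0.198 to 0.517 for Slc7a9.

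The transporters that rose numbered 3 among genes of at least 5 CPM in 4 samples and 3 to 7 with 1 library left out, and those that fell 5 to 6. The 5 CPM filter left 19 transporters to test, without Slc6a9, Slc7a3 and Slc7a2, and called 34.5% of all genes it tested. By DESeq2, which called 34.5% of all genes (2543 higher) beside 29.3% in edgeR, 7 rose and 6 fell, and by limma-voom (29.2%) 4 rose and 6 fell. Slc38a9 also lost its call with a sex term (adjusted p = 0.0539). Leaving out 1 library gave 6 to 8 enzymes that rose and 3 to 4 that fell, 3 to 4 and 1 to 2 amino acid response genes, 1 to 2 and 3 to 4 tRNA synthetases, 4 to 6 and 1 to 4 mTORC1 genes, and 2 to 3 and 1 to 3 other carriers. The fits with 1 library left out called 20.8% to 27.8% of all genes tested. Without KO replicates 2 and 3, 5 enzymes, 6 response genes and 1 other carrier fell and 1 synthetase rose. By DESeq2 5 response genes rose. Without a count filter 1 synthetase rose and 2 mTORC1 genes fell, as with a sex term. Over all genes tested, 13.3% of 27053 were called without a filter and 26.3% of 14583 with a sex term.

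Replicate numbers shared by the groups did not pair the samples: deviations from the group means correlated at 0.29, -0.03, -0.02 and -0.33 for numbers 1 to 4, and only number 1 correlated best with its own. With the numbers as a replicate block, in which KO replicate 5 has no partner and adds nothing, 5 transporters rose and 5 fell, 4 enzymes rose and 1 fell, 1 synthetase rose and 1 fell, 3 mTORC1 genes rose and 2 fell, and 1 other carrier rose and 1 fell. Over all genes the block called 1296 higher and 1375 lower, beside 2110 and 2161 without it. No filter called 1787 higher and 1817 lower, of 27053 genes tested. At this depth, members under about 1 CPM rest on few counts.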
